A study of Mus musculus with 16 samples.

Results

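The regions of accessible chromatin described here are those of pancreatic islets of A/J mice set against islets of C57BL/6J mice, called AJ and B6 below. The comparison took 4 of the 16 samples of the series, namely the female and the male of each strain, and 1 sample was made from a selection of 50 islets. No sample was treated, ages are not given in the labels, and no other allele or agent is named for either strain. The series holds the same 2 sexes for 6 more strains (129, CAST, NOD, NZO, PWK and WSB), and it asks how islet chromatin differs between the founder strains of a mouse cross used in diabetes genetics. Nothing in the labels says whether the islets of a sample came from 1 animal or several, so p-values measure the spread between these samples only, and sex and replicate are the same thing within a strain.

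The assay, ATAC-seq, uses a transposase that cuts DNA where it is not wrapped around nucleosomes, so that promoters and enhancers in use stand out as peaks of reads. Islets are the endocrine clusters of the pancreas. Most of their cells in the mouse are insulin-secreting beta cells, with glucagon (alpha), somatostatin (delta) and pancreatic polypeptide (gamma) cells beside them. C57BL/6J mice become obese and diabetic on a high-fat diet whereas A/J mice largely resist it, and C57BL/6J carries a deletion in Nnt, a mitochondrial transhydrogenase that supplies NADPH. The reference genome used for all samples is that of C57BL/6J, so reads of AJ were aligned to the other strain's sequence.

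Peaks of the 4 samples on chromosomes 1 to 19 were joined wherever they overlapped, which gave 163163 regions. Of these, 57224 had a peak in all 4 samples and carried the test of signal. A further 2513 regions had a peak in both AJ samples and in neither B6 sample (1.54% of all regions), and 11545 had a peak in both B6 samples and in neither AJ sample (7.08%). The remaining regions were called in 1 sample, in a mixed pair or in 3 samples. The value of a region is the height of its highest peak summit, as log2(summit signal + 1) centred on the sample's median over the 57224 shared regions. Levels in the text are scaled, meaning that the summit signal was divided by that sample's median summit over the shared regions, so that 1 is a typical shared region.

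The reference sequence around the summits of leading regions is shown first, because several of the largest strain differences lie in sequence of an unusual kind. Each run is 200 bases of GRCm38 (RefSeq, the build called mm10), plus strand, centred on the highest summit. Capitals mark matches to the motifs listed further below, on either strand. For each kind 2 of the leading regions are given, chosen among windows with no annotated untranslated region, the first pair being regions higher in AJ, the second pair regions higher in B6, the third pair regions called only in AJ, and the last pair regions called only in B6. A region is named by the gene with the nearest transcription start site.
Gm42698, chr5:44370085-44370284: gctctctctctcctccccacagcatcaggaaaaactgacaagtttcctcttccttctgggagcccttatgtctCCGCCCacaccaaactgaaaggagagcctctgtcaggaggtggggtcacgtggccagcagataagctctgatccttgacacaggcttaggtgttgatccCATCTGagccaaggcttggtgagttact
Gm36640, chr6:135279356-135279555: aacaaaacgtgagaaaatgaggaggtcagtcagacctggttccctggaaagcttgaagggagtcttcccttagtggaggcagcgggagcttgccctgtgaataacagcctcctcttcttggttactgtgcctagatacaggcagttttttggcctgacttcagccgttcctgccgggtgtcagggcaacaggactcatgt
Gdf3, chr6:122615856-122616055: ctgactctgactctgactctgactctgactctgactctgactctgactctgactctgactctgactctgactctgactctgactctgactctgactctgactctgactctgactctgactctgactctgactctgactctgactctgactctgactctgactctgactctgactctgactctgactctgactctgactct
Gm19684, chr17:36121472-36121671: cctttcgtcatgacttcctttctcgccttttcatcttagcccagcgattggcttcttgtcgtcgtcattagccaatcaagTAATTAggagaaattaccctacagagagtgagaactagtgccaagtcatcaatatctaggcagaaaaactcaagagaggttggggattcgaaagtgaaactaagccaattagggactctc
Srek1ip1, chr13:104742933-104743132: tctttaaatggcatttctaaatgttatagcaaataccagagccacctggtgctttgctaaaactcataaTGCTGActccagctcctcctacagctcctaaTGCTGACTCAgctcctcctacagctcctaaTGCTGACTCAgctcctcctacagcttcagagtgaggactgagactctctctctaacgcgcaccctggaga
Klhl1, chr14:96513157-96513356: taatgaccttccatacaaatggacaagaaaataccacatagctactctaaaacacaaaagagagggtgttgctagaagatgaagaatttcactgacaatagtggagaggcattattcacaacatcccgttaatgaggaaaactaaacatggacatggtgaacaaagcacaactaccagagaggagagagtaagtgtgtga
Gm39154, chr8:30131173-30131372: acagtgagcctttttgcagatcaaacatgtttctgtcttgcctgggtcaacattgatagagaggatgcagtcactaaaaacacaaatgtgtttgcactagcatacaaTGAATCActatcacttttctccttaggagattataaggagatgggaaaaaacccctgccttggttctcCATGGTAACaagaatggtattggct
Gm31258, chr16:77301422-77301621: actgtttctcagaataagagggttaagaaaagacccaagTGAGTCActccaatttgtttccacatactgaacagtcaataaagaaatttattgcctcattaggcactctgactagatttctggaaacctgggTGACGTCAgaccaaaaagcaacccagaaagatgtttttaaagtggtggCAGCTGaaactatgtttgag

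The Gdf3 window was 33 tandem copies of a 6-base unit, and 3 copies in a row of this unit or its complement occurred in only 2 of the 163163 region windows. The Srek1ip1 window held a 30-base unit in 2 tandem copies, and each copy carried an AP-1 match that overlapped a MAF motif. The 2 highest B6-only regions of all, near Gm2021 and Gm36406, lay at 97% and 100% in bases that the RefSeq genome masks as repeats and are not printed, so that the B6-only pair above holds the next 2. Their 2 windows shared a run of 39 identical bases on opposite strands. That run was taken from these 2 B6-only windows, so its presence in the B6-only set is partly built in. It was present in 35 of the 11545 B6-only windows (0.303%) and in 79 of all 163163 windows (0.0484%). Of the 2513 AJ-only windows 0 held it, and of the 57224 shared windows 1 did. More than 100 of the 200 bases were repeat-masked in 20.4% of AJ-only regions, 7.13% of B6-only regions, 3.19% of shared regions and 9.21% of all merged regions. The shares were 14.3% among regions called higher in AJ outside chromosome 19 and 5.88% among regions called higher in B6. These shares are descriptions of the sets and were not tested.

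The peak lists differed in length. AJ had 96126 peaks in the female and 77887 in the male, B6 had 117672 and 108920, and the other 12 samples had between 89618 and 167051. The median summit over shared regions was 49 and 41 in AJ and 63 and 64 in B6, before scaling. Pearson correlations across the 57224 shared regions, which are not independent replicates, were 0.923 between the AJ samples, 0.90 between the B6 samples and 0.860 to 0.888 between strains. The AJ-minus-B6 differences taken in females and in males correlated at 0.274 and had the same sign in 58.4% of shared regions. The peak lists do not hold the number of reads behind them, so depth was not used here and list length and median summit stand in its place.

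Chromosome 19 stood apart in its whole length, and this touches every count below. Over its 1316 shared regions the median centred log2 signal was 0.42 in both AJ samples, -0.39 in the B6 female and -0.53 in the B6 male. The median AJ-minus-B6 difference there was 0.93 on the log2 scale, and 93.2% of its regions had a positive difference. It was 0.94 over 570 promoter regions, 0.92 over 392 intronic regions and 0.91 over 283 intergenic regions, so it did not belong to 1 kind of region. In 5-Mb bins it ran from 0.29 to 1.36. Chromosome 18 was shifted the other way (-0.42, n = 1860) and chromosome 11 less so (-0.20, n = 1609), while the medians of the other 16 chromosomes lay between -0.02 and 0.13. The share of a sample's peaks that fell on chromosome 19 was 2.70% and 2.59% in AJ and 1.76% and 1.60% in B6. Among regions called in all 16 samples, B6 had the lowest chromosome 19 medians (-0.44 and -0.66), 129 was also low (-0.23 and -0.37), and AJ (0.37 in both) lay within the range of CAST, NOD, NZO and WSB (0.21 to 0.50). The cause of these whole-chromosome shifts was not tested. Results are therefore given with and without chromosome 19 and with centring within each chromosome, an alternative chosen after these medians were seen.

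**Figure D1:**
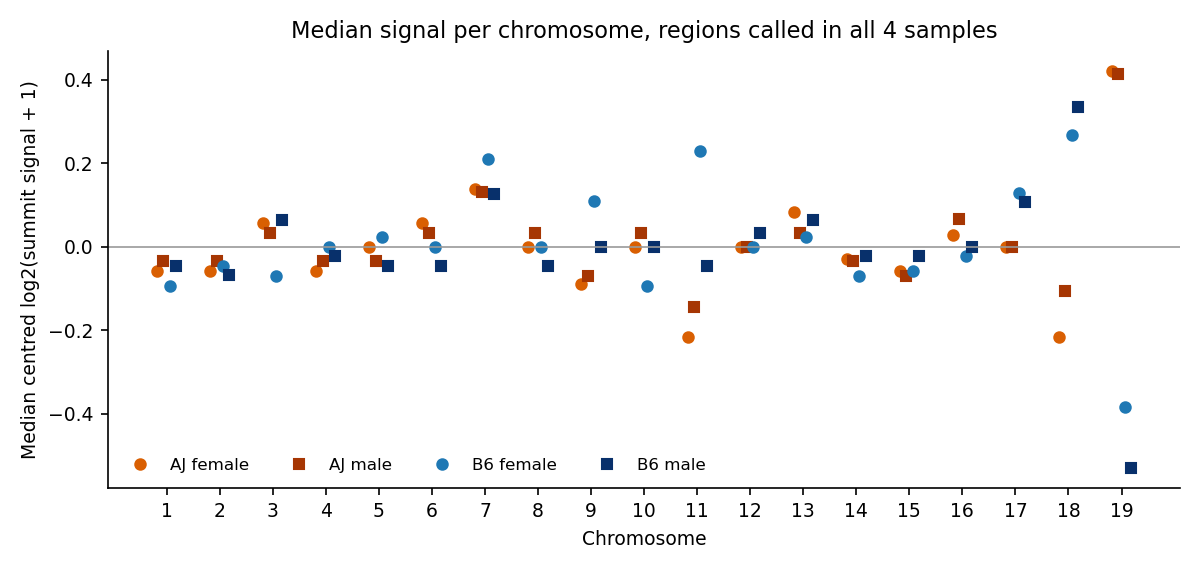
Median centred log2(summit signal + 1) of each sample (points; circles female, squares male) over the regions of each chromosome that were called in all 4 samples. On chromosome 19 both AJ samples sit at 0.42 and the B6 samples at -0.39 and -0.53, whereas chromosome 18 shows the opposite order.

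By limma over the 57224 shared regions, 350 differed between the strains at a Benjamini-Hochberg adjusted p under 0.05 (0.612%). Signal was higher in AJ in 248 regions (0.433%) and higher in B6 in 102 (0.178%). Chromosome 19, with 1316 of the regions tested, held 87 of the 248 regions higher in AJ and none of those higher in B6, which left 161 higher in AJ elsewhere. With centring within chromosomes, 100 regions were higher in AJ (0.175%) and 70 higher in B6 (0.122%), and 98 and 69 of these were also called without it. Both AJ samples lay above both B6 samples in 15308 shared regions (26.8%) and both B6 samples above both AJ samples in 9932 (17.4%), and all 350 called regions were of this kind. An exact permutation test of 2 samples against 2 cannot go below p = 0.333 (two-sided), so single regions were judged only by the model across all regions. The smallest difference that was called was 1.67 on the log2 scale, the median 2.09. The region just outside the threshold had an adjusted p of 0.0504 and a log2 difference of 1.81. With a term for sex 3 regions stayed called, and without the B6 female or the B6 male nearly all calls were lost. All 350 kept their sign in each of these fits, but that outcome was fixed in advance. In all 350, both samples of one strain already lay above both of the other, so leaving out 1 sample cannot turn the sign. A term for sex does not change the strain difference in this balanced design.

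Regions higher in AJ had a median scaled signal of 2.10 in AJ and 0.424 in B6, and regions higher in B6 had 0.583 in AJ and 2.94 in B6. Promoters, meaning regions within 3 kb of a transcription start site, made up 34.8% of shared regions, 33.5% of those higher in AJ (29.2% outside chromosome 19) and 21.6% of those higher in B6. Intergenic regions made up 30.3%, 35.1% (66 of 161 outside chromosome 19) and 41.2%. These shares were not tested. All 102 regions higher in B6 overlapped a peak that the strain-level list of B6 held at an irreproducible discovery rate (IDR) of 0.05, and 239 of the 248 higher in AJ overlapped one of the AJ list. Over all shared regions these shares were 75.4% for B6 and 61.2% for AJ.

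**Figure D2:**
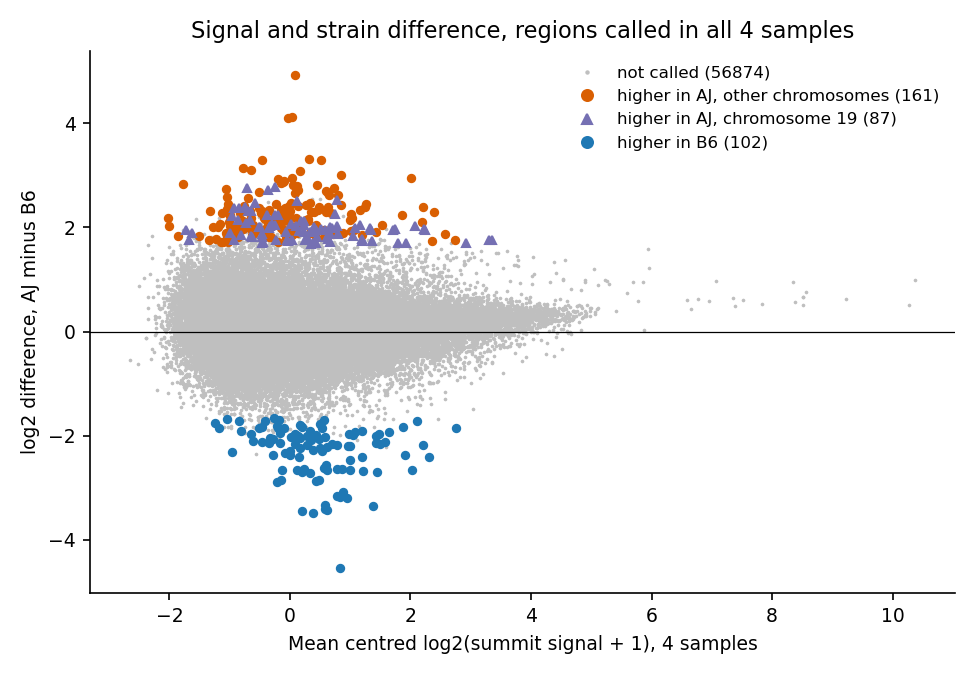
AJ-minus-B6 log2 difference of each shared region (y axis) against its mean centred log2(summit signal + 1) over the 4 samples (x axis). Regions called at an adjusted p under 0.05 are coloured by direction, with the 87 on chromosome 19 as triangles; no called region had an absolute difference under 1.67.

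The 15 largest differences in favour of AJ lay at 5 promoters, 3 introns, 2 exons and 5 intergenic sites, and none was on chromosome 19. The largest was in an exon of Adgrv1, a very large adhesion receptor, at chr13:81505355-81506371, with the start site of Gm48567 nearest. Its scaled signal was 6.16 in the AJ female, 5.73 in the AJ male, 0.206 in the B6 female and 0.156 in the B6 male, a 30.3-fold difference (log2 4.92, SE 0.31, limma adjusted p = 0.00244). Both AJ samples were far above a typical shared region and both B6 samples far below it. The region was also called in all 12 samples of the other strains. Near Gm42698, at chr5:44369901-44370495 between genes, the scaled signals were 4.00 and 4.71 in AJ and 0.206 and 0.266 in B6 (17.3-fold, adjusted p = 0.00485), and only 129 and NOD had it in both of their samples. Near Gm36640, at chr6:135279033-135280193, they were 4.24 and 4.02 against 0.190 and 0.266 (17.1-fold, adjusted p = 0.00485). The groups did not overlap at either site, as at all 350 called regions.

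Among the genes with a role known from elsewhere, Nuf2, a kinetochore protein, had an intronic region at chr1:169517336-169518348 with scaled signals of 4.53 and 4.61 in AJ and 0.397 and 0.5 in B6 (9.89-fold, adjusted p = 0.0102). Gbe1, the glycogen branching enzyme, had one at chr16:70423602-70424140 with 1.67 and 1.83 against 0.143 and 0.234 (8.84-fold, adjusted p = 0.0142). Both sites were open in AJ at or above the level of a typical shared region and were weak in B6. The region of the highest level in this group lay at chr1:5072003-5072993 within Atp6v1h, a subunit of the proton pump that acidifies vesicles, and 1718 bases from a start site of Rgs20, a regulator of G-protein signalling. It had 10.1 and 13 in AJ and 1.70 and 1.27 in B6 (7.68-fold, adjusted p = 0.0142), so B6 too was above a typical region there, and its summit window was repeat-masked throughout. The promoters of Gm14226, 4930579F01Rik, Gm45633 and Speer4e, the intergenic regions near Actr3, Gm33450 and Gm14111, the intron of Synpo2 and the exon of Col24a1 differed between 7.22-fold and 9.96-fold. All 15 stayed called with centring within chromosomes.

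The largest difference in favour of B6 was the tandem-repeat region 5609 bases from Gdf3, a ligand of the TGF-beta family, at chr6:122615696-122616347. Its scaled signal was 0.367 and 0.341 in AJ, 5.38 in the B6 female and 14.2 in the B6 male (23.4-fold, log2 -4.55, SE 0.44, adjusted p = 0.0102). The B6 samples differed from each other here by more than the AJ samples did, but both were well above AJ. A region at chr18:56504175-56504938 near Aldh7a1 had 0.388 and 0.366 in AJ and 4.54 and 4.36 in B6 (11.3-fold, adjusted p = 0.00903). At chr17:36120738-36121921, in the major histocompatibility complex, the promoter of Gm19684 had 0.551 and 0.195 against 4.08 and 3.56 (10.9-fold, adjusted p = 0.0213). AJ and B6 carry different haplotypes of that complex.

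Intronic regions made up 4 of the 15. Clec2g, a C-type lectin, had 0.653 and 0.317 in AJ against 4.30 and 6.05 in B6 (10.7-fold, adjusted p = 0.0147). Akap6, an anchoring protein for protein kinase A, had 0.918 and 0.707 against 10.0 and 7.06 (10.2-fold, adjusted p = 0.0102), the only one of the 15 whose AJ signal also overlapped a peak of the AJ strain list. Lsamp, a neuronal adhesion protein, had 0.347 and 0.610 against 2.78 and 8.27 (10.0-fold, adjusted p = 0.0301), with a wide gap between the B6 samples. In Fggy, a carbohydrate kinase, the difference was 7.27-fold. At chr4:89875288-89877114, far from Dmrta1, scaled signals were 0.571 and 0.585 in AJ and 5.03 and 5.83 in B6 (9.10-fold, adjusted p = 0.0102). That region had a peak in only 2 of the 12 samples of the other strains. The Abca13 exon on chromosome 11 lost its call with centring within chromosomes (log2 -2.87 to -2.59, adjusted p = 0.0540), and the other 14 kept theirs.

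**Figure D3:**
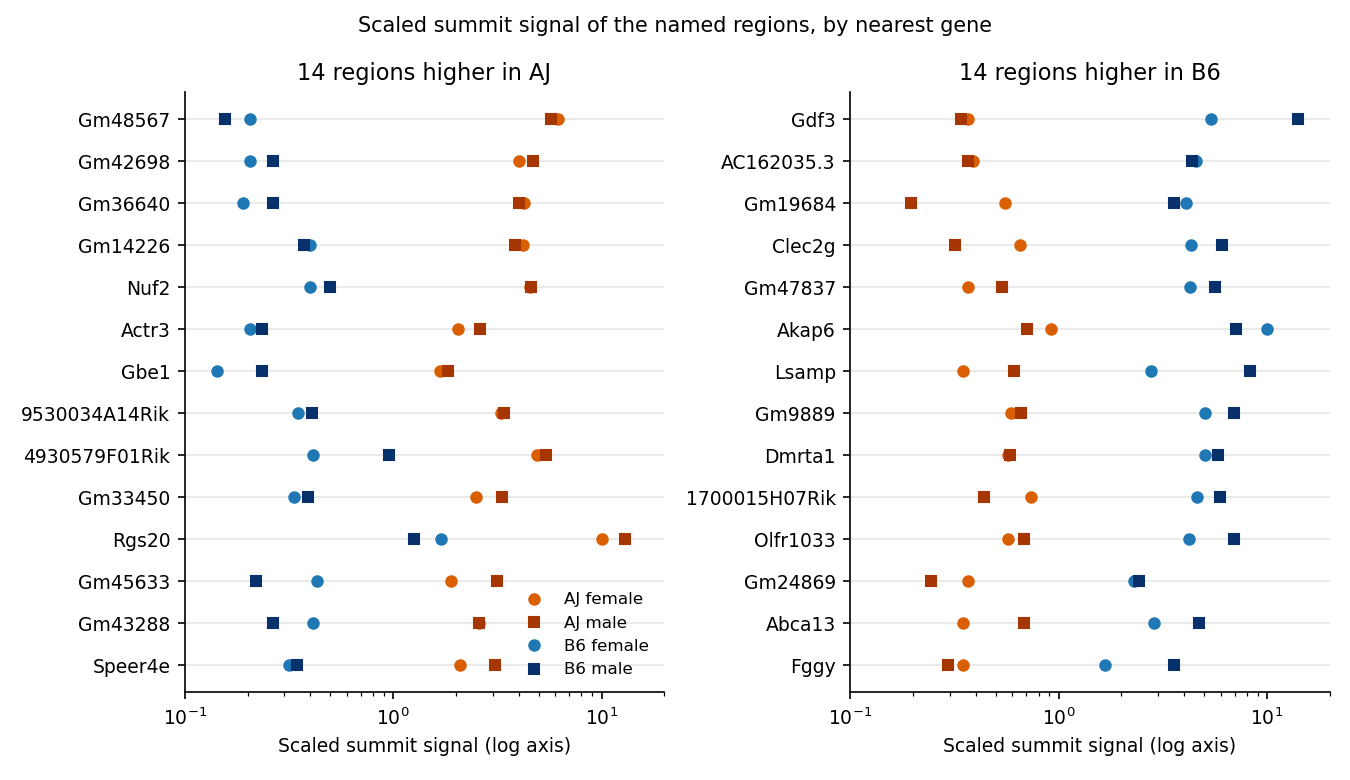
Scaled summit signal (log axis; 1 is the median of the sample's shared regions) of the 14 regions with the largest called difference in each direction, named by the gene with the nearest start site; circles are females and squares males. In every row the 2 samples of one strain lie above the 2 of the other, as the naming rule required. The widest gap within a strain is that of the B6 samples at Lsamp.

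Regions called higher in AJ came in runs along the genome. The 1-Mb window chr8:20000001-21000000 held 15 of them among 123 shared regions, whose median log2 difference was 1.5, and its leading genes were predicted genes such as Gm21182 and Gm21119. The window chr19:34000001-35000000 held 14 of 51 with a median of 1.5, among them regions at Fas, the death receptor, Lipa, the lysosomal acid lipase, and the interferon-induced Ifit3. None of those 14 stayed called with centring within chromosomes, which left 0 regions higher in AJ on chromosome 19 by limma. From Lipa to Ifit1 the median went from 1.59 to 0.72, and the shared regions within 500 kb on either side had a median of 1.5 without that centring. The window chr5:15000001-16000000 held 13 of 30 with a median of 1.61, in a cluster of Speer genes, which are expressed in testis. The AJ samples had 64 and 57 regions with a peak in that window, B6 had 40 and 39, and PWK had 60 and 52. Regions higher in B6 were spread out: 88 windows held one, 7 windows held 2, and none held 3.

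Single-strain regions of AJ were more clustered still, with 654 of the 2513 in 10 windows, against 245 of the 11545 B6-only regions in the 10 windows that held most of those. On chromosome 13 between 65000001 and 67000000, a stretch of zinc finger genes and predicted genes around Zfp640, 301 of 589 regions were AJ-only and 3 were B6-only. The AJ samples had a peak in 452 and 436 of these regions and the B6 samples in 36 and 41. The 301 regions were not confined to AJ, since between 150 (129) and 233 (PWK) of them had a peak in at least 1 sample of each of the other strains. On chromosome 12 between 113000001 and 116000000, over the variable segments of the immunoglobulin heavy chain (Ighv), 191 of 503 regions were AJ-only and 10 B6-only. There the other strains divided, with a peak in 153 of the 191 in 129, 129 in PWK, 101 in WSB, 61 in NZO, 38 in CAST and 4 in NOD. Median scaled signals of these 2 AJ-only groups were 0.564 and 0.566, below a typical shared region. Both stretches joined neighbouring windows that were chosen for their counts. For B6 the leading window was chr14:43000001-44000000, with 46 of 174 regions B6-only, followed by 2 windows of chromosome 18 that start at 37 and 46 Mb with 28 and 27, the first over Diaph1 and protocadherin beta genes. On chromosome 18, 15.8% of all regions were B6-only and 0.387% AJ-only. On chromosome 19 the shares were 1.52% and 6.32%.

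Most single-strain regions were weak and narrow. AJ-only regions had a median width of 257 bases and a median scaled signal of 0.454 in AJ, and B6-only regions had 200 bases and 0.339 in B6, against 625 bases for shared regions. A peak of the strain's own list at an IDR of 0.05 overlapped 12.4% of AJ-only and 10.5% of B6-only regions. The excess of B6-only regions moved with list length: with every list shortened to its 77887 strongest peaks, 3447 regions were AJ-only and 5386 B6-only. Leaving out 1 sample gave between 3592 and 15158 AJ-only and between 13569 and 40079 B6-only regions. A strain left with 1 sample was then judged by that sample alone, which is a looser rule. Without the AJ male, 15158 regions had a peak in the AJ female and in neither B6 sample. By contrast, 13569 regions had a peak in both B6 samples and not in the AJ female.

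Single-strain regions were set against the lists of the other strains. No peak in any of the 12 other samples was found at 214 AJ-only regions (8.52%) and 381 B6-only regions (3.30%), against 15.6% of all merged regions. A peak in all 12 was found at 67 (2.67%) and 631 (5.47%), against 28.3%. The median was 5 of 12 for AJ-only and 7 of 12 for B6-only and for all merged regions. Both samples of WSB had a peak in 46.3% of AJ-only and 66.0% of B6-only regions, and it also had the highest share of the 6 strains over all merged regions (61.3%). NOD had 38.5% of AJ-only, 23.6% of B6-only and 44.1% of all merged regions, and CAST 36.1%, 56.8% and 56.6%. List lengths differ between the strains, so these shares are descriptions.

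**Figure D4:**
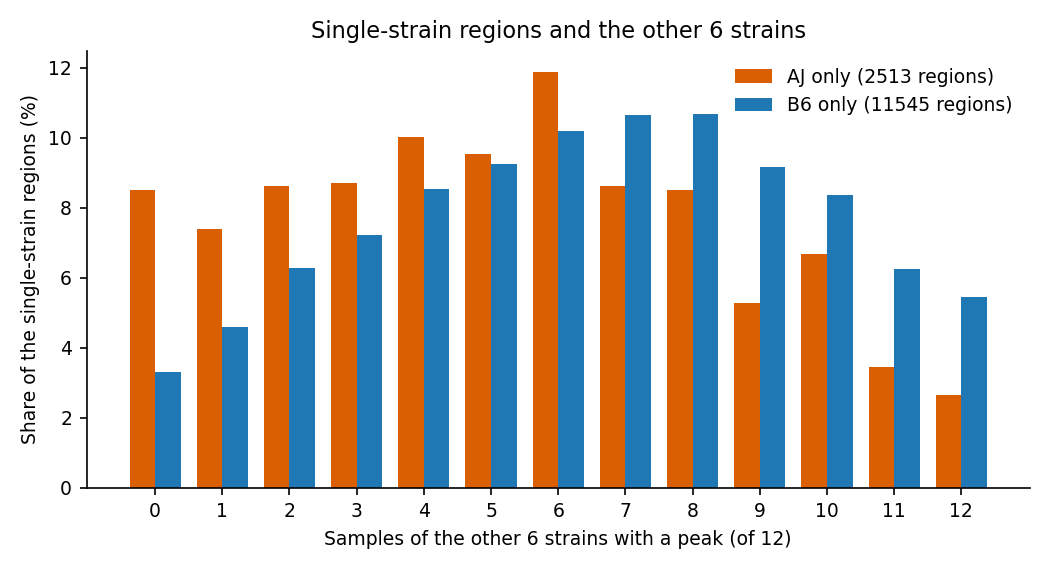
Share of the 2513 AJ-only and the 11545 B6-only regions (bars, percent of each set) by the number of the 12 samples of the other 6 strains that had a peak there. The AJ-only bar at 0 samples is 8.52% and the B6-only bar 3.30%, and most regions of both sets were shared with some other strain.

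The AJ-only region with the highest signal was the tandem-repeat site in an intron of Cwc27, a splicing factor, at chr13:104742778-104743096. Its scaled signals were 14.2 in the AJ female and 10.6 in the male, with no peak listed in either B6 sample and a peak in 8 of the 12 other samples. In an intron of Klhl1, at chr14:96512791-96513762, they were 5.55 and 7.63, and CAST, NOD, PWK and WSB shared it. At the start of Rprl3, an RNA gene related to RNase P, they were 4.61 and 5.61, and all 12 other samples had the peak, so that B6 was the strain without it. The site near Gm49574 (3.63 and 4.98) was found in no other sample, and the one in an intron of Tmtc2 (5.16 and 2.54) in 1. At 2434 bases from the start of Itln1, an intelectin that binds microbial glycans, AJ had 3.47 and 4.20 and 10 of the other samples had a peak. In the intron of Ncoa2, a nuclear receptor coactivator, the AJ samples were far apart (5.67 and 0.561).

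Among B6-only regions the highest were the repeat-masked sites near Gm2021 (8.17 and 10.6 in the B6 female and male) and Gm36406 (6.87 and 8.53). The region near Gm39154, printed above, had 5.83 and 8.05, and that near Gm31258 had 5.49 and 8.33 and was present in all 12 other samples. A region 192 bases from an annotated start of Itgb1bp1, which binds the tail of integrin beta-1, had 5.79 and 6.52 at chr12:21247515-21248209. One in an intron of Adam17, the protease that releases tumour necrosis factor, had 5.24 and 3.12 at chr12:21335801-21336454. Both were present in all 12 other samples and had no peak in AJ. Between Itgb1bp1 and Adam17, 5 of 19 regions were B6-only, whereas the 8 shared regions had log2 differences between -0.39 and 0.31. The site near Klhl33 (5.37 and 5.06) and that near Gm3318 (4.92 and 3.94) were called in 2 of the other samples each.

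Promoter regions of 14 gene lists were then read, taking for each gene the strongest shared region within 3 kb of a start site. Of 172 genes, 118 had one (117 distinct regions). By limma none of these passed an adjusted p of 0.05, against 105 of 19907 among all shared promoter regions; 14 had an unadjusted p under 0.05 (12.0%, against 12.6% of all shared regions), 12 of them higher in AJ. With centring within chromosomes the count was also 0. In whole islets fewer cells of a type and less open chromatin per cell cannot be told apart.

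Of 18 beta cell identity genes 16 had a promoter region that was tested, and 0 were called. The median log2 difference of those tested was -0.03 (range -0.76 to 1.29). Ins1, 1 of the 2 mouse insulin genes, had scaled signals of 8.61 and 7.88 in AJ and 3.73 and 3.00 in B6 (log2 1.29, SE 0.31, limma adjusted p = 0.110). It lies on chromosome 19, and with centring within chromosomes its difference was 0.41 (adjusted p = 0.638). Ins2 had 0.776 and 0.537 in AJ against 1.33 and 0.922 in B6 (log2 -0.76, limma adjusted p = 0.400). The groups of neither insulin gene overlapped, but their differences had opposite signs. Both AJ samples lay above both B6 samples in 26.8% of all shared regions, and the reverse held in 17.4%, so such separation is common. Pdx1, the factor required for pancreas formation and for insulin transcription, had 1.55 and 1.95 against 3.03 and 1.83. G6pc2, the islet glucose-6-phosphatase, and Pcsk1, the proinsulin convertase, differed least (-0.01 and 0.03).

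The 13 tested genes of stimulus-secretion coupling had a median of -0.06 and no call, with 1 at an unadjusted p under 0.05. Syt7, a calcium sensor of exocytosis, had the largest difference (0.76, adjusted p = 0.392), and as a gene of chromosome 19 it came to -0.11 with centring within chromosomes. Adcy8, an adenylyl cyclase, had 1.29 and 1.44 in AJ against 0.968 and 0.938 in B6 (0.50, adjusted p = 0.528). For Kcnj11 and Abcc8, the subunits of the channel that ATP closes, the rule picked the same region. It had 1.31 and 1.32 against 2.13 and 1.55 (-0.47, limma adjusted p = 0.585). Kcnj11 was the gene with the nearest start site. Since 9 regions lay within 3 kb of annotated Abcc8 starts, the value does not describe the promoters of Abcc8 as a whole. Ffar1, the fatty acid receptor, and the calcium channel gene Cacna1c were at 0.01 and 0.02. Nnt had 3.14 and 3.34 in AJ against 2.46 and 2.89 in B6 (0.27, adjusted p = 0.753). The 15 antioxidant genes, which include Nnt, had a median of -0.09 and 7 positive differences. The sensor Keap1 was lowest (-0.57) and the peroxiredoxin Prdx3 highest (0.55, or -0.33 with centring within chromosomes), while Txnrd2 and Gsr were both at -0.09.

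**Figure D5:**
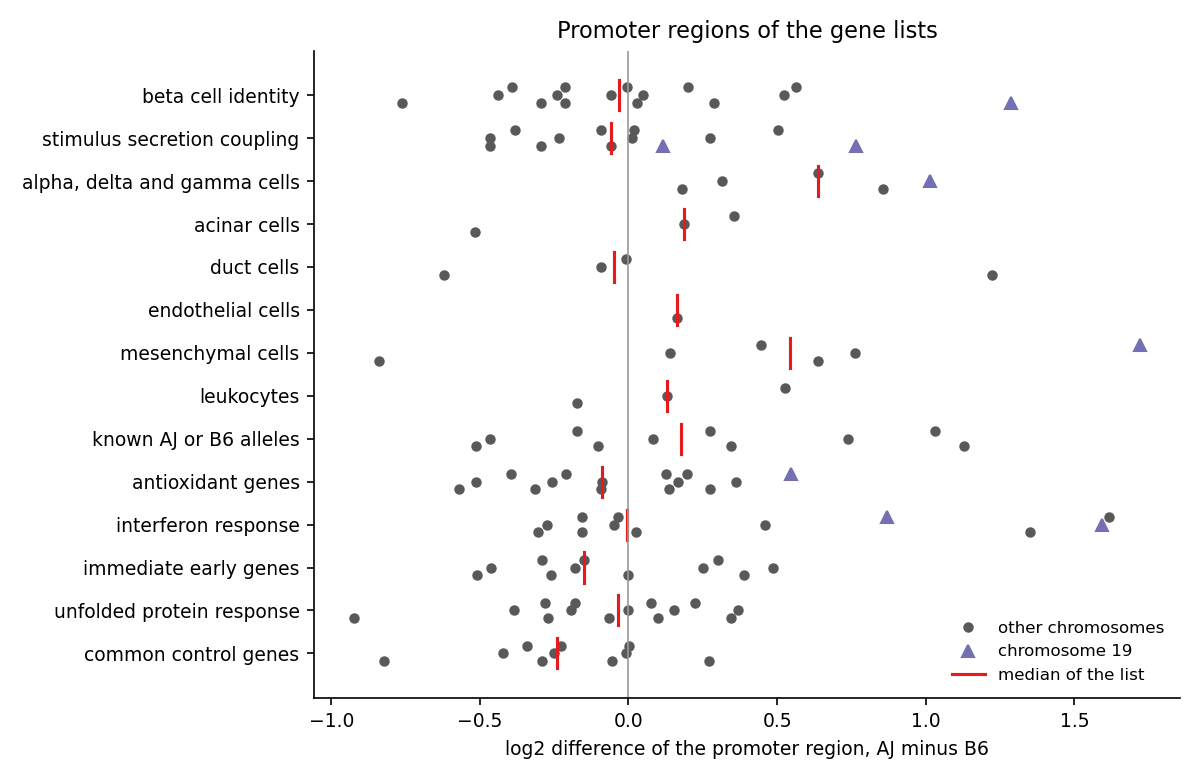
AJ-minus-B6 log2 difference of the promoter region of each tested gene of the 14 lists (points), with genes of chromosome 19 as triangles and the median of each list as a red line. None passed an adjusted p of 0.05, and the highest values were Acta2 (1.72), Gbp3 (1.62) and Ifit1 (1.59).

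Interferon response genes had 4 promoters at an unadjusted p under 0.05 and none called by limma. Gbp3, an interferon-induced GTPase, had scaled signals of 4.27 and 4.56 in AJ and 1.57 and 1.28 in B6 at chr3:142559692-142561040 (log2 1.62, SE 0.30, adjusted p = 0.0570). Its neighbour Gbp2 had 2.10 and 2.71 against 0.937 and 0.906 (1.35, adjusted p = 0.0974). Neither moved much with centring within chromosomes (1.57 and 1.30). Ifit1 had 5.18 and 6.73 against 1.89 and 1.98 (1.59, adjusted p = 0.0607), but it lies on chromosome 19 and came to 0.72 there. Stat2 (-0.04) and Trim30a (0.02) were the smallest, and the median of the 12 tested genes was -0.01. Between Gbp5 and Gbp2 the 6 shared regions had a median of 0.32 and ran from -0.20 to 1.62. Of these, 4 were positive and 0 were called.

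At loci where AJ and B6 are known to carry different alleles or copy numbers, the largest values were those of Glo1 and Btbd9. Glo1 encodes glyoxalase 1, which detoxifies methylglyoxal, and A/J carries a duplication that includes it. Its promoter had 4.53 and 5.00 in AJ and 2.63 and 1.77 in B6 (1.13, SE 0.32, adjusted p = 0.184), and Btbd9 had 3.24 and 2.61 against 1.79 and 1.11 (1.03, adjusted p = 0.252). All 7 shared regions from Btbd9 to Dnah8 (chr17:30215524-30877365) had positive differences, from 0.70 to 1.56 with a median of 1.11. The 14 shared regions within 500 kb on either side had a median of -0.50, 4 of them positive. The interval also held 5 B6-only and no AJ-only regions, the strongest with B6 summit signals of 59 and 52. This interval was chosen after the values were seen, and the part of copy number in it was not tested. In the histocompatibility complex H2-D1 had 5.73 and 5.10 against 4.30 and 2.41 (0.74), and H2-K1 had 2.33 and 2.39 against 4.38 and 2.41 (-0.46), neither called. Tyrp1 (0.08) and H2-Ab1 (-0.10) were the smallest, and the list's median over 10 genes was 0.18. Hc, Naip5, Tyr and Dnah8 had no promoter region called in all 4 samples.

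Markers of other cells in the islet preparation ranged from no peak to levels far above a typical shared region, and no list had a called member. Of 12 acinar genes 3 had a shared promoter region and Ctrb1, Pnlip, Cel, Rbpjl and Gp2 had no peak there in any of the 4 samples. The list's summed scaled signal over its tested genes was 3.10 to 3.37 in AJ and 2.98 to 3.06 in B6, with Bhlha15 at -0.52, Nr5a2 at 0.36 and Ptf1a at 0.19 (the list's median). Of 8 endothelial genes only Tek was tested (0.16, summed 0.488 to 0.551 against 0.444 to 0.484), and of 12 leukocyte genes 3 were (2.76 to 3.41 against 2.59 to 3.46), with Ptprc at 0.53, H2-Aa at -0.17 and Cd74 at 0.13 (the list's median, 0.50 with centring within chromosomes), and with Cd3e, Adgre1, Lyz2 and Itgam without a peak. The 4 duct genes tested had a median of -0.05 (0.01 with centring within chromosomes) and summed to 5.76 to 5.82 in AJ and 5.58 to 5.86 in B6. Within them Cftr had 1.06 and 1.71 against 0.556 and 0.578 (1.22, adjusted p = 0.159), Muc1 had a difference of -0.62, and Epcam (-0.09) and Spp1 (-0.0092) were the smallest. Mesenchymal genes had a median of 0.54 (5 of 6 positive, summed 8.18 to 9.27 against 5.56 to 7.91). Their extremes were Acta2, smooth muscle actin, with 1.14 and 1.29 against 0.429 and 0.297 (1.72, adjusted p = 0.0554, or 0.85 with centring within chromosomes, being on chromosome 19), and Dcn (-0.84), with Col3a1 at 0.45 and Col1a2 at 0.14. Alpha, delta and gamma cell genes were positive at 5 of 5 promoters with a median of 0.64 (0.33 with centring within chromosomes). They were led by Hhex (1.02, or 0.14 with centring within chromosomes) and Irx2 (0.86), with Etv1 at 0.31. The glucagon gene Gcg, the defining marker of alpha cells, had 6.18 and 6.61 against 5.67 and 5.56 (0.18). That Gcg region lay 1043 bases from a start site, and the 1 shared region over the gene body had a difference of -0.68, higher in B6. Sst, which defines delta cells, Ppy, which defines gamma cells, and Pyy had no promoter peak in any of the 4 samples. The part of cell composition in any difference was not tested.

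Stress and control lists had no called member either. The 14 genes of the unfolded protein response had a median of -0.03, with Ern1, its sensor kinase, lowest (-0.92, adjusted p = 0.238), Herpud1 at -0.39, Atf6 at -0.07 and Xbp1 at -0.0025 (0.27 with centring within chromosomes). The 10 common control genes had a median of -0.24 (-0.12 with centring within chromosomes) and 2 positive differences, with Actb at 0.837 and 0.683 in AJ against 1.65 and 1.11 in B6 (-0.82, adjusted p = 0.342) and Tbp and Ppia within 0.01 of 0 (0.11 and 0.27 with centring within chromosomes). The 11 immediate early genes had a median of -0.15 (-0.04 with centring within chromosomes), with Fosl2 at -0.51, Myc at 0.48, Fosb at -0.15 and Ier2 at -0.0030. For comparison, the median over all shared promoter regions was 0.04.

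For sequence features, 15 short motifs were searched on both strands in the 200 bases around each summit; those not given with values below were homeobox (TAATTA), the PTF1A E-box (CAGCTG), HNF1 (GTTAATNAT), RFX (GTTNCCATG), PU.1 (GAGGAAGT), CRE (TGACGTCA), NRF1 (GCGCATGCG) and YY1 (AAGATGGCG), each found in between 0.255% and 14.8% of all 163163 regions. AP-1 (TGANTCA) was found in 13.5% of shared regions, 8.00% of AJ-only and 16.3% of B6-only regions, and in 15.8% of all regions. The SP/KLF motif GGGCGG was found in 15.4%, 3.18% and 7.08% (8.21% of all), the ETS motif CCGGAAG in 3.68%, 0.995% and 1.56% (1.98%), and the CTCF core AGNNGGCGC in 5.90%, 2.23% and 3.18% (3.47%). FOXA (TGTTTAC) differed less, at 6.86%, 5.01% and 7.40% (6.01% of all), as did the NEUROD1 E-box (CAGATG) at 20.3%, 20.8% and 22.9% (20.5%). Median GC content was 47.1% in shared, 45.7% in AJ-only and 47.1% in B6-only regions. Among regions called by limma, AP-1 was found in 7.26% of those higher in AJ and 7.84% of those higher in B6, and the MAF motif TGCTGA in 52 of 248 and 28 of 102 (27.5%), against 11417 of 57224 shared regions (all regions 19.8%). A match is a run of letters and not evidence of binding, and these shares were not tested.

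At the called regions the other strains did not follow 1 pattern. Over the 96 regions higher in AJ outside chromosome 19 that had a peak in all 16 samples, the strain mean was nearer to AJ than to B6 in 73 (76.0%) for PWK, 68 for NOD, 59 for 129, 57 for NZO, 41 for CAST and 40 (41.7%) for WSB. Over all such shared regions these shares were 44.8% for PWK, 55.3% for NOD and 43.9% for 129. They were 36.9% for NZO, 39.7% for CAST and 37.6% for WSB. Over the 63 regions higher in B6 the share nearer to AJ ran from 36.5% (NZO) to 57.1% (PWK). In 4 of the 96 regions all 6 strains were nearer to AJ, and in 4 of the 63 none was (4.17% and 6.35%). Over all such shared regions these shares were 7.71% and 14.4%. AJ and B6 values chose these regions, so distances to them are given as a description.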

How the data were processed

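ATAC-seq signal of pancreatic islets was compared between AJ and B6, with 1 female sample and 1 male sample of each strain. The members, gene lists and motifs were chosen with earlier results of these data known. The authors trimmed reads with cutadapt 2.0, aligned them to mm10 (the B6 reference) with Bowtie2 2.3.4.1, used SAMtools and Picard 2.9.2, and ran the peak caller MOSAiCS on each sample alone (false discovery rate 0.05); whether cut sites were shifted for the transposase is not given in the sources used here. The deposited sample lists give a whole-number summit signal and a mean signal per peak, not scaled between samples, with a -log10 p-value; the deposited strain lists give a -log10 IDR from both samples of a strain. The lists do not hold reads per sample, so no counting interval was computed.

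Peaks overlapping by at least 1 base were merged (pandas 2.3.3, Python 3.11.15). Signal was tested with limma 3.58.1 (R 4.3.3; design ~strain, empirical Bayes, adjustment over 57224 regions, pseudocount 1), and the code was tested on simulated data. Alternatives were fits with other scaling, filters, pseudocounts, a sex term or 1 sample left out. Named were the 15 regions of at most 5000 bases with the largest called differences each way, the 10 strongest single-strain regions per strain, the leading 3 windows of 1 Mb, and in each gene list the 2 largest and 2 smallest differences where no member was called; Gbp2, Pdx1, Kcnj11, Abcc8, Nnt, H2-D1, H2-K1 and Gcg, the Btbd9 to Dnah8, Gbp5 to Gbp2 and Itgb1bp1 to Adam17 intervals and the unlisted cell markers were named after their values were seen. Annotation was GENCODE M21, and sequences came from RefSeq GRCm38. Ero1b and H2-Ea were not found under these symbols. A few members of the lists and regions are not reported here.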

Additional observations from a re-analysis of the deposited data

Results flagged for a closer look

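Chromosome X was outside the comparison. Its peaks merged into 6277 regions, of which 58 were called in both AJ samples and neither B6 sample (0.924%) and 265 in both B6 samples and neither AJ sample (4.22%). Over the 2084 regions called in all 4 samples the median AJ-minus-B6 log2 difference, centred as for the autosomes, was 0.14, with 0.17 between females and 0.14 between males. These values were flagged only because they lie in data that the comparison left out, and they were not tested.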

How the results depend on the processing

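The 30 named shared regions kept their direction in each alternative that tested them: in 390 region-by-setting fits they stayed called and in 132 they did not. The rule that named these 30 asked for both samples of one strain above both of the other. Their direction could therefore not change with a sex term or with 1 sample left out. With all 16 samples 19 of the 30 were tested, in regions above the median signal 22, and under the stricter peak threshold only 1 was matched. The counts moved. Regions higher in AJ and in B6 (248 and 102) were 22 and 123 with no centring, which shifts the median difference of all shared regions from 0.06 to -0.43, so that the share of calls higher in AJ went from 70.9% to 15.2%. They were 35 and 26 after quantile normalization (57.4%), 100 and 70 with centring within each chromosome (58.8%), and 121 and 71 with chromosome 19 left out; the last 2, and joining touching peaks, were chosen after seeing the data. They were 661 and 242 with a pseudocount of 10, 427 and 192 in regions above the median signal, 773 and 328 with all 16 samples in the fit (42025 regions), and 2692 and 11164 when regions called in 2 of the 4 entered with 0 for a missing peak. With mean in place of summit signal 172 were higher in B6. With sex as a term (replicate block) 3 and 0 were called and 6705 had an unadjusted p under 0.05, and with that term and centring within each chromosome 0 and 0 by limma, with 5938 at an unadjusted p under 0.05. The deviations of the AJ female and of the B6 female from their strain means had a correlation of -0.094 across all shared regions. That value does not say what sex does at the called regions. The fit with a sex term has fewer residual degrees of freedom, and why fewer regions were called was not tested. Leaving out 1 sample gave 0 to 550 regions higher in AJ and 0 to 255 higher in B6; without the B6 female 1 and 1 and without the B6 male 0 and 0 were called (8078 at an unadjusted p under 0.05), where the lone sample is assumed to vary like the other strain. The block changed no call of a gene list promoter, nor did the other alternatives run for them.

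AJ-only and B6-only regions (2513 and 11545) were 1074 and 6544 under the stricter peak threshold, 5386 for B6 with lists of equal length, and 3592 to 15158 and 13569 to 40079 when 1 sample was left out. In the last setting a strain left with 1 sample was judged by that sample alone, so the rule differs. The chromosome 19 median of 0.93 was 0.44 with no centring, 0.57 with mean signal, 0.78 with a pseudocount of 10 and 1.05 in regions above the median signal, and 0.87 to 0.99 when 1 sample was left out.

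Small differences at list promoters changed sign, none of them called. With no centring these were Pcsk1 (-0.46), Ffar1 (-0.48), Cacna1c (-0.48), Gcg (-0.31), Etv1 (-0.18), Nr5a2 (-0.14), Ptf1a (-0.31), Tek (-0.33), Col1a2 (-0.35), Col3a1 (-0.047), Cd74 (-0.36), Tyrp1 (-0.41), Trim30a (-0.47), Myc (-0.0084) and Ppia (-0.49). With centring within each chromosome they were Syt7 (-0.11), Cacna1c (-0.050), Epcam (0.027), H2-Ab1 (0.014), Prdx3 (-0.33), Xbp1 (0.27) and Tbp (0.11). The cause of these changes was not tested.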

Other observations

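Promoters of immediate early genes, which respond within minutes to stimuli, were mostly higher in the B6 female than in the B6 male (10 of 11, the exception being Myc at 3.62 and 3.66). This held for 64.6% of all shared promoter regions too, and in AJ the female was higher at 8 of 11 and in 44.3% of all. Fos had scaled promoter signals of 5.24 in the B6 female and 2.42 in the B6 male against 2.98 and 3.34 in the AJ female and male, and Fosb had 6.89 and 2.48 against 3.94 and 3.56. Ier2 had 3.98 and 1.83 against 3.06 and 2.39. With 1 sample per sex and strain this has no replicate and was not tested.

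The strain difference also varied with signal and base composition. The median AJ-minus-B6 log2 difference was 0.21 in the tenth of shared regions with the lowest mean signal, 0.00 in the middle and 0.15 in the tenth with the highest, and it went from 0.18 in the tenth with the lowest GC content to -0.04 in that with the highest.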
